A study of Homo sapiens with 6 samples.

Results

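To describe the genes of translation initiation in intestinal cells deprived of oxygen and then resupplied with it, the rows of the deposited expression table whose gene symbol begins with EIF were examined, with pseudogene and antisense names left out. These were 6 genes (EIF1, EIF2S2, EIF4A2, EIF2A, EIF5A2 and EIF2AK3) among 2257 rows, and each symbol stood in 1 row. RefSeq lists 56 protein-coding symbols with this beginning, and the others were not analysed here. Polyadenylated RNA from Caco-2 cells, a human colorectal adenocarcinoma line with features of small intestinal enterocytes, was sequenced in 3 samples after hypoxia/reoxygenation (H/R) and in 3 control samples, all labelled wild type (WT). In the study's cell model, hypoxia lasted 15 h at 1% O2, and cells were then returned to normal oxygen for a time that the sources used here do not give for the sequenced samples. The methods mention siRNA transfection for RNA-seq, and the labels of these 6 samples do not say whether any was transfected.

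Levels are in FPKM, that is, fragment counts scaled to transcript length and to the mapped fragments of the library, so that levels of different genes can be compared per length. The table appears to hold preselected rows, since the group means differed at least 2-fold, up or down, in 92.2% of those with both means above 0, and the criterion is not stated in the sources used here. Counts and p-values below apply within that selection, the depth of each sample is unknown, and nothing says whether replicates were grown as separate cultures. Each p-value sets a group difference against the spread between these samples, and that spread may be technical. The group means of all 6 genes differed at least 2-fold. If rows were selected on the difference between these same samples, small p-values would follow in part from it, also in the alternative fits. Of 14 intestinal epithelial markers, 6 had a row (APOA1, FABP1, ALPI, SLC15A1, KRT20 and SI), with a summed level of 2657 to 3099 FPKM in H/R samples and of 7012 to 8317 FPKM in control samples. Most of that sum was APOA1, and the other 5 summed to 127.9 to 160.3 FPKM in H/R samples and 240.3 to 335.3 FPKM in control samples. FABP1 made up most of the rest, at 117.6 ± 16.9 FPKM after H/R and 251.0 ± 42.4 FPKM in control. Of the 4 tested, 3 fell (APOA1, FABP1 and ALPI). SLC15A1 rose, at 13.7 ± 1.87 FPKM after H/R and 6.41 ± 2.11 FPKM in control (log2 change 1.02). Of 8 fibroblast genes, 2 had a row and summed to 27.3 to 34.6 FPKM in H/R samples and 20.3 to 28.2 FPKM in control samples. They went opposite ways, with PDGFRA at 23.2 ± 4.05 FPKM after H/R and 7.98 ± 4.06 FPKM in control (log2 change 1.51) and COL1A1 at 7.08 ± 0.211 FPKM after H/R and 15.6 ± 0.221 FPKM in control (log2 change -1.04). ESAM, the 1 of 5 endothelial genes with a row, was at 7.94 to 11.4 FPKM in H/R samples and 3.15 to 4.12 FPKM in control samples. CD14, the 1 of 5 immune genes with a row, was at 4.91 to 5.96 FPKM in H/R samples and at 10.44 to 15.7 FPKM in control samples. The goblet cell genes TFF3 and MUC2 (2 of 3 listed) summed to 82.0 to 136.8 FPKM in H/R samples and 216.5 to 415.6 FPKM in control samples. Nearly all of that sum was TFF3, at 81.82 to 136.55 FPKM in H/R samples and 216.51 to 415.65 FPKM in control samples. MUC2 was under the mean of 1 FPKM needed for a test. None of these markers was at 0 in every sample, and their part in the results below was not tested. In bulk RNA, fewer cells of a kind and less RNA per cell cannot be told apart.

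Translation initiation places a ribosome on the start codon of an mRNA. The GTPase eIF2 delivers the initiator methionyl-tRNA, the eIF4F complex with its helicase eIF4A opens the 5′ end of the mRNA, and eIF1 on the small subunit keeps scanning ribosomes from settling on a wrong start. Kinases that phosphorylate the alpha subunit of eIF2 slow most initiation under stress, and the kinase of the endoplasmic reticulum (ER) is PERK, the product of EIF2AK3. The 6 genes therefore cover start codon selection (EIF1), eIF2 itself (EIF2S2, its beta subunit), the helicase (EIF4A2), a factor outside eIF2 that can bring the initiator tRNA (EIF2A, which is not a subunit of eIF2 despite its name), a paralog of the hypusine-containing factor eIF5A, which acts mostly in elongation (EIF5A2), and the kinase (EIF2AK3).

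The start codons of the 6 mRNAs differed in the bases around them, their context. It is shown because eIF1 acts in start codon selection and because the mRNA of EIF1 is known for a poor context. The sequences below run from 9 bases before the ATG to the base after it in 1 representative GENCODE transcript per gene, with the base 3 before the ATG, the ATG itself and the base right after it in capitals.
EIF1: tcgtatCgtATGT
EIF2S2: gccgcaGccATGT
EIF4A2: tttcggAtcATGT
EIF2A: cgggacAacATGG
EIF5A2: ctgcccAccATGG
EIF2AK3: gggacgCtgATGG
A purine 3 bases before the ATG together with a G right after it is the strong form of this context, and it was present in EIF2A and EIF5A2, against 42.6% of 18492 protein-coding genes. EIF1 was the member with neither feature, which held for 6.92% of those genes. EIF2S2 and EIF4A2 had the purine alone and EIF2AK3 the G alone. The number of ATG triplets upstream of the start codon was 5 in EIF2AK3, 2 in EIF2A and 1 in EIF2S2, and none was found in EIF1, EIF4A2 and EIF5A2. At least 1 upstream ATG was present in 51.7% of 19531 genes.

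EIF1 was the highest of the genes in both groups. It was listed at 2526, 1917 and 1822 FPKM in H/R replicates 1, 2 and 3, against 820.1, 882.5 and 665.3 FPKM in control replicates 1, 2 and 3. The groups did not overlap, and the lowest H/R sample was 2.07 times the highest control sample. The means were 2088 ± 382 FPKM after H/R and 789.3 ± 112 FPKM in control (SD, n = 3 each), and the log2 change on the log2(FPKM + 1) scale was 1.40 ± 0.19 (SE, limma, adjusted p = 1.48e-04). Among the 2034 rows tested, EIF1 had the rank 6 by mean level in H/R samples and 25 in control samples.

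EIF2S2, the beta subunit of eIF2, was measured at 263.3, 282.1 and 317.5 FPKM in H/R replicates 1, 2 and 3, against 91.9, 105.8 and 145.7 FPKM in control replicates 1, 2 and 3. The groups were again separate, with means of 287.7 ± 27.5 FPKM after H/R and 114.4 ± 27.9 FPKM in control, and the log2 change was 1.34 ± 0.20 (adjusted p = 2.23e-04). It had the smallest relative spread among the 6 genes in H/R samples (9.57% of the mean). Of the 50-base windows of its transcript, 22.6% are also present in transcripts of other genes, mostly the processed pseudogene EIF2S2P4. Reads of the gene and its copies may thus have been split by the authors' counting. The reads were 150 bases long, so the share of windows is not the share of ambiguous reads, and the effect on the level was not tested. The share of such windows was 5.83% in EIF4A2, 3.9% in EIF1 and 1.71% in EIF5A2, and no window of EIF2A or EIF2AK3 was shared.

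EIF4A2, a helicase paralog of EIF4A1, was at 238.3, 281.3 and 328.9 FPKM in H/R replicates 1, 2 and 3, against 65.4, 109.8 and 182.3 FPKM in control replicates 1, 2 and 3. The groups did not overlap, although the control samples spread over a 2.79-fold range. The means were 282.8 ± 45.3 FPKM after H/R and 119.2 ± 59.0 FPKM in control, and the log2 change was 1.35 ± 0.32 (adjusted p = 0.00236). In GENCODE, exons of annotated EIF4A2 transcripts overlap small nucleolar RNA genes, among them SNORA63 and SNORD2. They also overlap a coding gene on the other strand (RFC4, by 21 bases) and an antisense gene (AC112907.3, by 435 bases). Exons of all annotated transcripts were pooled, so such bases may lie outside the representative transcript. The sources used here do not say that strand was used in counting.

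EIF2A was intermediate in level, with 74.5, 87.6 and 112.8 FPKM in H/R replicates 1, 2 and 3, against 19.0, 29.1 and 52.5 FPKM in control replicates 1, 2 and 3. Every H/R sample was above every control sample, by 1.42 times at the closest. The means were 91.6 ± 19.5 FPKM after H/R and 33.5 ± 17.2 FPKM in control, and the log2 change was 1.52 ± 0.32 (adjusted p = 0.00139). The pooled exons of its annotated transcripts share 153 bases with SERP1, a coding gene on the opposite strand. Reads of SERP1 could not be told apart from those of EIF2A there if strand was not used.

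EIF5A2 and EIF2AK3 were the low genes. EIF5A2 was at 10.62, 15.6 and 12.9 FPKM in H/R replicates 1, 2 and 3, against 2.5, 5.9 and 5.66 FPKM in control replicates 1, 2 and 3. The groups were separate, with means of 13.0 ± 2.48 FPKM after H/R and 4.69 ± 1.90 FPKM in control and a log2 change of 1.35 ± 0.29 (adjusted p = 0.00145). EIF2AK3 was at 6.47, 11.6 and 15.4 FPKM in H/R replicates 1, 2 and 3, against 3.43, 4.12 and 7.82 FPKM in control replicates 1, 2 and 3. It was the member whose groups overlapped, because H/R replicate 1 lay below control replicate 3. Its means were 11.2 ± 4.49 FPKM after H/R and 5.12 ± 2.36 FPKM in control, and its log2 change was 0.98 ± 0.34 (adjusted p = 0.0174). This call ended without H/R replicate 2 (adjusted p = 0.0556), without H/R replicate 3 (0.0741), without control replicate 1 (0.0606) and without control replicate 2 (0.0526), and with an ordinary linear model (0.0975). Exons of EIF2AK3 overlap the antisense gene AC104134.1 by 781 bases, with the same limits on pooled transcripts and strand as in EIF4A2. A pseudocount of 1 understates the changes of low genes, and with a pseudocount of 0.1 the log2 changes were 1.53 in EIF5A2 and 1.11 in EIF2AK3.

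**Figure D1:**
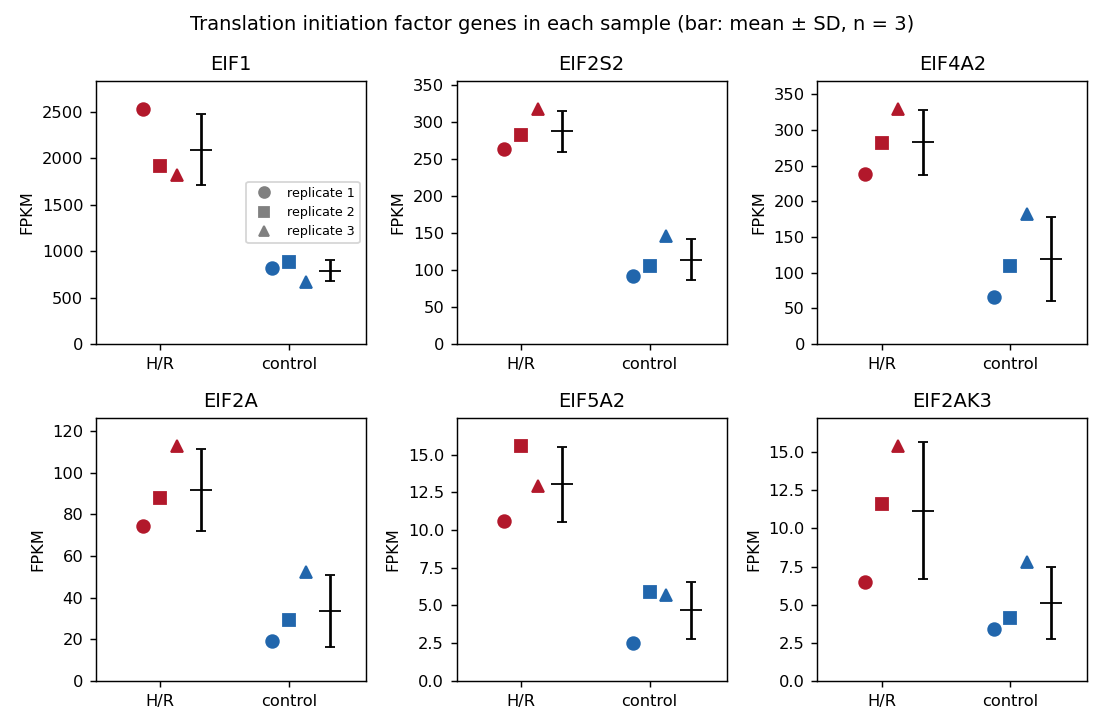
FPKM of the 6 translation initiation factor genes (vertical axes, each from 0) in the 3 H/R samples (left, red) and the 3 control samples (right, blue), with symbols for the replicate number and black bars for the mean ± SD. The groups overlap in EIF2AK3 alone, where H/R replicate 1 (6.47 FPKM) lies below control replicate 3 (7.82 FPKM).

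In all, 6 of 6 genes passed the test as higher after H/R (limma, adjusted p under 0.05), where 46.1% of the 2034 rows rose and 99.0% were called in one direction or the other. In 5 of 6 genes every H/R sample was above every control sample, against 42.6% of rows (866). A rise with a log2 change of at least 1 was found in 5 of 6, against 34.8% of rows (707). Both shares are over all rows, of which 937 rose, and so follow mainly from the direction of change. Nearly every row of this table is called, so that a call alone does not set these genes apart. The median log2 change was 1.35 over the 6 genes, -0.80 over all rows tested and 1.19 over the rows that rose. In an exact permutation test of each gene alone (two-sided), EIF2AK3 had p = 0.2 and the other 5 genes had p = 0.1, which is the smallest p that 3 against 3 samples allow.

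**Figure D2:**
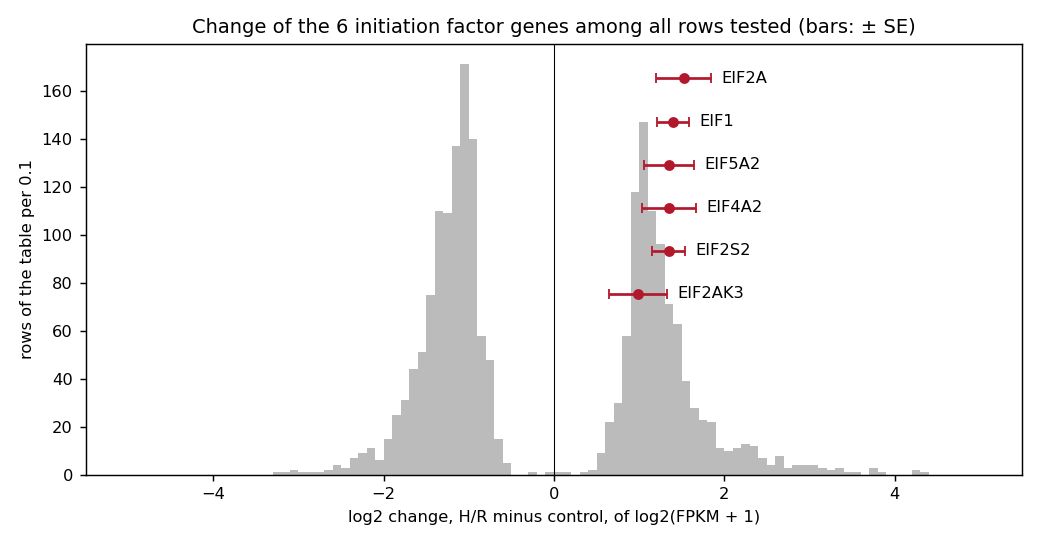
Histogram of the log2 change (horizontal axis, log2(FPKM + 1), H/R minus control) over the 2034 rows tested, in bins of 0.1, with the number of rows on the vertical axis and red points with bars (± SE) for the 6 genes, at heights chosen for legibility. All 6 lie in the right-hand mode, from 0.98 in EIF2AK3 to 1.52 in EIF2A, and few rows lie near 0.

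The order of the levels was EIF1, EIF2S2 and EIF4A2, EIF2A, and then EIF5A2 and EIF2AK3. EIF1 was 7.26 times the next gene in H/R samples and 6.62 times in control samples, by mean FPKM. EIF2S2 and EIF4A2 overlapped in both groups (a ratio of 1.02 between EIF2S2 and EIF4A2 after H/R, and of 1.04 between EIF4A2 and EIF2S2 in control), so their order cannot be read from these samples. The same held for EIF5A2 and EIF2AK3, with ratios of 1.17 for EIF5A2 over EIF2AK3 after H/R and 1.09 for EIF2AK3 over EIF5A2 in control. The steps to and from EIF2A were larger than the spread. EIF4A2 was 3.09 times EIF2A after H/R, and EIF2S2 was 3.41 times EIF2A in control.

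Changes were then compared between the genes, pair by pair, as the difference of their log2(FPKM + 1) values within each sample. Of 15 pairs, none passed after adjustment (exact permutation tests, lowest adjusted p = 0.75, a design in which 0.1 is the smallest raw p). The raw p was 0.1 in 2 pairs. The change of EIF2A exceeded that of EIF2AK3 by 0.54 on the log2 scale, the largest of the 15 differences at a pseudocount of 1, and the change of EIF4A2 minus that of EIF2A was -0.17. In the 10 pairs without EIF2AK3, the largest difference was 0.18. These p-values do not show that the genes changed by the same amount.

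Within each group, the genes fell into different patterns over the samples. EIF2S2, EIF4A2, EIF2A and EIF2AK3 were lowest in replicate 1 and highest in replicate 3 of both groups, while EIF5A2 was lowest in replicate 1 and highest in replicate 2 of both. EIF1 differed from them, being highest in H/R replicate 1, at 0.29 above the H/R mean on the log2 scale, and lowest in replicate 3 of both groups, at -0.18 from the H/R mean and -0.24 from the control mean. The widest deviations were those of control replicates 1 and 3, at -0.73 and 0.73 from the control mean for EIF4A2 and -0.67 and 0.75 for EIF2A. Libraries of a group also differed along GC content across all rows, where the slope of the deviation was 0.15, -0.031 and -0.12 per 10 points of GC in H/R replicates 1, 2 and 3, and 0.25, -0.0014 and -0.25 in control replicates 1, 2 and 3. The GC content of the representative transcripts was 46.4% in EIF1, 45.2% in EIF2S2, 44.4% in EIF2AK3, 40.6% in EIF4A2, 39.7% in EIF2A and 34.3% in EIF5A2, which is below the median of 53.2% over all rows in each case. Rows that rose had a median GC content of 46.2%, and rows that fell had 56.7%. With the slope of each library around its own group mean removed, which leaves the group means as they are, all 6 genes were called (limma, adjusted p from 1.34e-05 in EIF2S2 to 0.00489 in EIF2AK3). That correction cannot touch a GC difference shared by all samples of a group, whose part in the result was not tested.

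**Figure D3:**
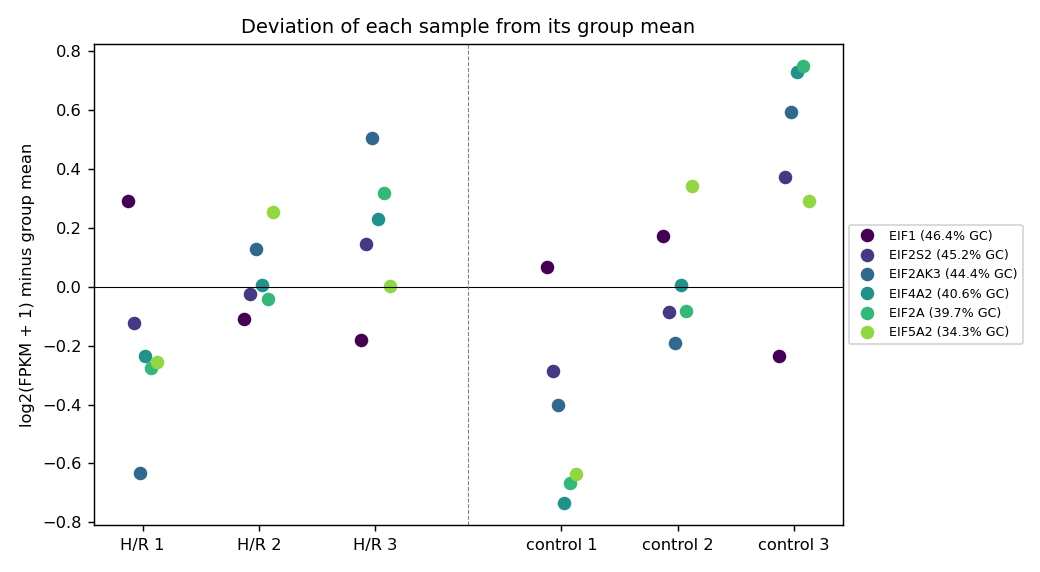
Deviation of log2(FPKM + 1) from the mean of its own group (vertical axis) in the 3 H/R samples (left of the dashed line) and the 3 control samples (right), for the 6 genes, coloured by the GC content of the representative transcript. Control replicates 1 and 3 carry the widest deviations, from -0.73 in EIF4A2 to 0.75 in EIF2A, and EIF1 goes the other way in replicates 1 and 3.

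To see which other rows followed the same pattern, the distance between genes was taken as the root mean square difference of their log2(FPKM + 1) values over the 6 samples, after each gene was centred on its own mean. The samples share library and depth, so this is a description. The rows closest to EIF1 were ACTG1, which encodes cytoplasmic gamma actin (distance 0.079, Pearson r = 0.997), ARHGEF2 (0.081), PLCD3, a phospholipase C gene (0.084), the spermine oxidase gene SMOX (0.086) and VSIR (0.095). None of the other 5 EIF genes was as close, and the nearest of them was EIF2S2 at 0.38. The closest to EIF2S2 were BTG3 (a numbered duplicate row of that gene), RSL24D1, which acts in ribosome biogenesis, and OSBPL10, at 0.074 to 0.080. EIF4A2 and EIF2A lay near each other (0.11, r = 0.996). The row closest to EIF4A2 was XPOT, which encodes the tRNA export factor exportin-t (0.047), followed by YOD1 (0.087) and ADGRG6 (0.10). For EIF2A these were PDGFRA, which is also on the fibroblast list (0.067), IPO7, an importin gene (0.087), and ITPRID2 (0.093). For EIF5A2 they were C3orf52 (0.12), BTN2A1 (0.14) and TES (0.14), and for EIF2AK3 they were CCNL1, which encodes cyclin L1 (0.081), TFPI (0.10) and the ubiquitin-activating enzyme gene UBA6 (0.10).

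Promoter sequences of RefSeq (build GRCh38.p14, 250 bases before to 50 after the start site) matched 5 of the 6 genes, all but EIF2S2. They were searched on both strands for ACGTG, a core of hypoxia response elements, for CACGTG, an E-box that contains it, for CCAAT, for TATAAA and for TGATGCAA, a form of the element bound by ATF4. ACGTG was present in 4 of the 5 promoters (EIF1, EIF2A, EIF5A2 and EIF2AK3), against 21.4% of 35116 promoters of that length. CACGTG was present in EIF5A2, against 7.26% of promoters. CCAAT was found in 4 of the 5 (EIF1, EIF2A, EIF5A2 and EIF2AK3), against 34.6%, and TATAAA in EIF4A2, against 11.5%. TGATGCAA was in none of the 5 windows, and in 0.866% of all promoters. A match describes these letters and is not a binding site. The promoters of EIF1, the highest gene, and of EIF5A2, which has CACGTG at 2 places, are printed 5′ to 3′ on the strand of the gene, with ACGTG and CACGTG in capitals. That of EIF1 is at chr17:41688635-41688934 on the plus strand, with ACGTG starting 65 bases before the start site, and that of EIF5A2 is at chr3:170908588-170908887 on the minus strand.
EIF1: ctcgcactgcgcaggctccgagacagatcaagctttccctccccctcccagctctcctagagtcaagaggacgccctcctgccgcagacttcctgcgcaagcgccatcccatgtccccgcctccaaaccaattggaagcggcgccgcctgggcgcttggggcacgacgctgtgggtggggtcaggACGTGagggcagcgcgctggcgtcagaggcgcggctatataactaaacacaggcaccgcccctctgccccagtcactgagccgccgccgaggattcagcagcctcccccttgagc
EIF5A2: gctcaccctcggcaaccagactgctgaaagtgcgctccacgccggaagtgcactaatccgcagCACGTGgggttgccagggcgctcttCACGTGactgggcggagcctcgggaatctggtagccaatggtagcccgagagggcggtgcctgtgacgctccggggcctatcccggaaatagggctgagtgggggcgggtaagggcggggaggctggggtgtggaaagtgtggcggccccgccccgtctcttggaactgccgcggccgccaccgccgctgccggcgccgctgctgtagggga

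Other genes that act on the initiation factors were taken from lists of the same pathway. Of 14 genes of the eIF2 phosphatase and the integrated stress response, 8 were in the table and 8 rose, with a median log2 change of 1.65 (46.1% of all rows tested rose, and the median was -0.80 over all rows and 1.19 over those that rose). They include both regulatory subunits that direct protein phosphatase 1 to eIF2, the reaction opposite to that of PERK. PPP1R15A was at 189.7, 231.0 and 161.8 FPKM in H/R replicates 1, 2 and 3, against 53.96, 51.5 and 41.8 FPKM in control replicates 1, 2 and 3, a log2 change of 1.96 ± 0.19 (adjusted p = 3.53e-05). PPP1R15B was at 47.5, 69.5 and 65.2 FPKM in H/R replicates 1, 2 and 3, against 13.4, 20.4 and 26.7 FPKM in control replicates 1, 2 and 3, a log2 change of 1.58 ± 0.26 (adjusted p = 3.76e-04). In both genes every H/R sample was above every control sample, as in 42.6% of rows tested. The named transcription factors of the response rose by 3.06 (ATF3) and 1.72 (DDIT3, which encodes CHOP) on the log2 scale, the glutathione-degrading CHAC1 by 2.25, and SESN2, a regulator of mTORC1, by 1.31.

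Genes of the mTORC1 and MNK kinases, which control the cap-binding complex, went both ways, and the table held 5 of 26 listed genes, with 2 higher and 3 lower after H/R and a median log2 change of -1.04. DDIT4, an inhibitor of mTORC1, averaged 260.6 ± 41.9 FPKM after H/R and 50.4 ± 6.81 FPKM in control, and MKNK2, a kinase of the cap-binding protein eIF4E, averaged 116.9 ± 10.7 FPKM after H/R and 58.9 ± 5.84 FPKM in control. MLST8, a subunit of mTOR complexes, averaged 47.5 ± 4.82 FPKM after H/R and 99.8 ± 22.2 FPKM in control. RPS6KB2, an S6 kinase gene, averaged 54.7 ± 7.75 FPKM after H/R and 135.0 ± 27.2 FPKM in control, and CASTOR1, an arginine sensor of mTORC1, 7.24 ± 1.22 FPKM after H/R and 15.9 ± 1.23 FPKM in control. These 5 genes passed the test, as did 99.0% of all rows tested. Their groups did not overlap, with every H/R sample above every control sample in 2 of them, as in 42.6% of rows. In the other 3 every H/R sample was lower, and the share of rows with that order was not counted.

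Few other translation genes had a row. Of 24 genes of poly(A) binding and helpers of initiation, PABPC1L was in the table and rose by 1.08 on the log2 scale. Of 93 cytosolic ribosomal protein genes, RPL22L1, a paralog of the ribosomal protein gene RPL22, was in the table, with 112.7 ± 12.9 FPKM after H/R and 32.0 ± 8.01 FPKM in control (log2 change 1.80 ± 0.21, adjusted p = 7.20e-05). Of 30 ribosome biogenesis genes, 3 were in the table and 3 rose (46.1% of all rows tested rose), namely the transcription factor gene MYC (2.65), the nucleolar helicase gene DDX21 (1.77) and the nucleolar GTPase gene GNL3 (1.13 on the log2 scale). No row was present for the 19 elongation and termination factors or the 12 mitochondrial translation factors listed, and these were not analysed here.

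**Figure D4:**
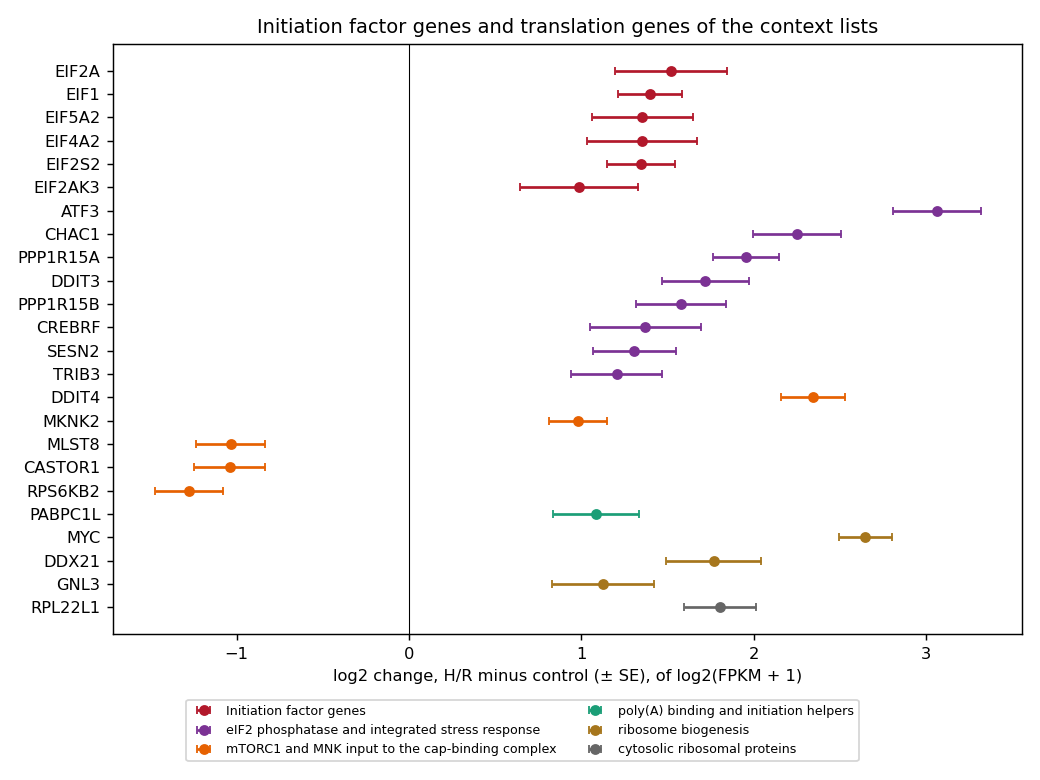
Log2 change (horizontal axis, log2(FPKM + 1), H/R minus control, bars ± SE) of the 6 initiation factor genes and of the genes in the table from 5 lists of translation genes, coloured by list and ordered by change within it. MLST8, CASTOR1 and RPS6KB2 lie left of 0, and the other genes lie right of it, up to 3.06 in ATF3.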

How the data were processed

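The authors deposited log2 values, with 1 column per sample whose name refers to FPKM. Undoing the logarithm and subtracting 1 gave multiples of 0.01 FPKM in 100% of values (tolerance 1e-05 FPKM), so the values are log2(FPKM + 1). The aligner and the counting tool were not given in the sources used here. Mouse builds (GRCm38, mm10) stand in the submitters' processing notes although identifiers are human, so no coordinates were taken from the table, and those printed are from RefSeq.

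Exact copies of a symbol (51 rows) were counted once. Of 2206 rows, 2034 had a mean of at least 1 FPKM and were tested with limma version 3.58.1 in R version 4.3.3 (two-sided moderated test of group with trended variance, Benjamini-Hochberg adjustment over all 2034 rows). The procedure was run on simulated data in which a minority of rows changed and rows varied independently. Nearly every row is called here and libraries share deviations, and the simulation does not cover those features. Transcript features are from GENCODE release 29, with 1 representative transcript per gene (APPRIS principal, CCDS, basic, then longest), available for 94.9% of rows tested. Exon overlaps were instead taken over all annotated transcripts of each gene. Members, lists and tests were chosen with earlier results of these data known. Every EIF gene is named, with the 5 rows closest to EIF1 and the 3 closest to each other member. From each list of translation genes all members in the table are named, or, above 6, the 6 with the smallest adjusted p. The alternatives were other pseudocounts, filters, scalings and variance models, a replicate block, GC slopes removed and samples left out.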

Additional observations from a re-analysis of the deposited data

How the results depend on the processing

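The changes of EIF1, EIF2S2, EIF4A2, EIF2A and EIF5A2 kept their direction and their call in all 22 alternatives each (highest adjusted p from 0.00457 in EIF1 to 0.0230 in EIF4A2 with limma, and from 0.00559 in EIF1 to 0.0443 in EIF4A2 with an ordinary linear model). That of EIF2AK3 kept its direction and lost its call in 6 of 22. Its log2 change was 0.98 with an ordinary linear model (adjusted p = 0.0975) and 0.82 without both samples numbered 2 (0.131, an alternative added after seeing the data), and without single samples it ranged from 0.73 to 1.30, with 2 of 6 calls held. The cause was not tested. The number of rows that fell at least 2-fold was 816, and it was 386 with equal totals and 249 with median-of-ratios scaling. Both scalings divide each sample by a factor computed from the rows of this table alone. Those rows appear preselected, and of the rows tested 1076 fell and 937 rose. The factors may thus reflect that selection, which was not tested. The log2 factor of H/R minus that of control was -0.35 and -0.52, so the division raises H/R against control. EIF2A then changed by 1.86 and 2.03, and EIF2AK3 by 1.28 and 1.43. Deviations from the group means, over the rows tested, correlated between same-numbered samples by r = 0.50, 0.072 and 0.52 for numbers 1, 2 and 3. Between H/R replicate 1 and control replicate 3 r was -0.50, and between H/R replicate 3 and control replicate 1 it was -0.49. The study states unpaired tests for 2 groups, and the main test took no pairs. Whether same-numbered samples share a batch was not tested. With a replicate block, all 6 genes were called (EIF2AK3 adjusted p = 6.76e-04), and 946 rows rose. The difference in change between EIF1 and EIF5A2 was 0.04, and -0.14 with a pseudocount of 0.1. Without single samples, an alternative added after seeing the data, 10 of 15 differences between genes changed sign. They ranged from -0.25 to 0.23 for EIF1 minus EIF2S2, -0.43 to 0.45 for EIF1 minus EIF4A2, -0.62 to 0.24 for EIF1 minus EIF2A, -0.23 to 0.40 for EIF1 minus EIF5A2, -0.047 to 0.76 for EIF1 minus EIF2AK3, -0.18 to 0.22 for EIF2S2 minus EIF4A2, -0.37 to 0.014 for EIF2S2 minus EIF2A, -0.22 to 0.17 for EIF2S2 minus EIF5A2, -0.17 to 0.22 for EIF4A2 minus EIF5A2 and -0.044 to 0.40 for EIF2A minus EIF5A2. Using further rows of a symbol gave no value, since each member has 1 row. Read depth is unknown, which leaves the counting error of EIF5A2 and EIF2AK3 unknown.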
